A study of Homo sapiens with 2 samples.

Results

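Heat shock proteins and their J domain partners were examined in Ramos, a Burkitt's lymphoma cell line of B-cell origin, and in Ramos640, a line derived from it that resists complement-dependent cytotoxicity (CDC) by rituximab, an antibody against CD20. The chaperones were taken by name from the RNA-seq count table: every row that begins with DNAJA, DNAJB, DNAJC, HSPA or HSPB and a number, or with HSP90, HSPD1, HSPE1 or HSPH1. This gave 131 of the 37122 rows. They comprised 72 genes, 52 pseudogenes, 4 antisense rows and 3 read-through rows. No exposure to antibody is stated for Ramos. Ramos640 was exposed every 21 days to rituximab and 20% normal human serum, the source of complement, at a concentration of 640 that the labels state in mg/mL and the methods of the study in μg/mL. RNA from 3 passages of each line was pooled into 1 library, so no difference has a replicate check and no test was possible. Ramos640 is a single selected derivative, and effects of selection, of repeated exposure and of time in culture cannot be told apart.

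Chaperones of the HSP70 family (HSPA genes) bind unfolded stretches of protein in a cycle driven by ATP. J domain proteins (DNAJ genes) deliver clients and stimulate the ATPase, nucleotide exchange factors such as HSPH1 reset it, and HSP90 acts on clients that are close to their final fold. Separate sets work in the cytosol, in the endoplasmic reticulum (ER), which makes B-cell immunoglobulin, and in mitochondria. Heat shock factor 1 induces many of the cytosolic genes, and the unfolded protein response induces the ER genes. Mortalin (HSPA9), the mitochondrial HSP70, is also known for helping cells to shed complement membrane attack complexes.

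The libraries held 38030090 reads for Ramos and 30871826 for Ramos640, and a count of 0 allows up to 3 reads, or 0.0789 and 0.0972 CPM (reads scaled to the library total). Fold changes are Ramos640 over Ramos after division by size factors of 1.14 and 0.876, with 1 added to each normalized count, and the intervals given are at 95% and cover counting error only. All 8 B-cell markers examined had at least 2039 reads in each library, among them PAX5 (4624 and 2039 reads) and CD79A (25460 and 29007), while CD3D and CD2 of T cells had none and none of the other T-cell, monocyte or epithelial markers exceeded 31 reads. The share of all reads that fell on chaperone rows was 1.28% in Ramos and 1.30% in Ramos640.

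The sequences below are shown for 5 genes on which the account turns: the ER chaperones HSPA5 and HSP90B1, which were higher in Ramos640, HSPA8, the most abundant HSP70, DNAJB6, which was lower, and DNAJC12, which had the largest difference. Each is the stretch directly before the RefSeq start site on the gene's own strand, 5′ to 3′, in GRCh38.p14. Capitals mark matches to the ER stress response element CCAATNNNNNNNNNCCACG or to the heat shock element GAANNTTCNNGAA, searched on both strands (the reverse forms are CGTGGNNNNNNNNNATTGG and TTCNNGAANNTTC). The DNAJC12 stretch holds neither.
HSPA5 (chr9:125241344-125241493, minus strand): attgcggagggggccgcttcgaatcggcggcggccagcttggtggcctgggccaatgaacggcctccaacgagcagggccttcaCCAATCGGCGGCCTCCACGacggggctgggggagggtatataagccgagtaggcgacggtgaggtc
HSP90B1 (chr12:103930200-103930409, plus strand): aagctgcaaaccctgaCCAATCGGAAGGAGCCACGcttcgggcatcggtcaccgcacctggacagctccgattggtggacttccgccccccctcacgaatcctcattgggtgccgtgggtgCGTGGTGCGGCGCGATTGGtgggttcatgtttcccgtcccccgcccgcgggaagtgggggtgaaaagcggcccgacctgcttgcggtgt
HSPA8 (chr11:123062137-123062376, minus strand): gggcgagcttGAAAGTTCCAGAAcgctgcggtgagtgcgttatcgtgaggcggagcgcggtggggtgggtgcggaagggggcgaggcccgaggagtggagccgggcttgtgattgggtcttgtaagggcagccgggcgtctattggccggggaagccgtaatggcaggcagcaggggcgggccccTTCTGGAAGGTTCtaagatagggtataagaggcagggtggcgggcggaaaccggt
DNAJB6 (chr7:157336854-157337003, plus strand): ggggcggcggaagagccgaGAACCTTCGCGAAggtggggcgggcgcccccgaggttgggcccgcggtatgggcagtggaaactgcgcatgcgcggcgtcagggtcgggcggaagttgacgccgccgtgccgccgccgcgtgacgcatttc
DNAJC12 (chr10:67838189-67838338, minus strand): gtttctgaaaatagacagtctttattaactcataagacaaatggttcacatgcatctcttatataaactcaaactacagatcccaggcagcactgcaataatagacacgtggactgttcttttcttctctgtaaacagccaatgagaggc

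Over windows from 250 bases before to 50 bases after the start, 65 of the 72 chaperone genes had a RefSeq entry. The ER stress response element was found in 22 of 27305 promoters (0.0806%) and in 2 of 13 ER chaperones, HSPA5 and HSP90B1, the latter with a match on each strand. Both genes were higher in Ramos640. No match was found for DNAJC1, SIL1, SDF2L1 or HYOU1, ER genes described below that were also higher by more than 1.5-fold. The heat shock element was found in 133 promoters (0.487%) and in 4 chaperone genes: HSPA8, DNAJB6, DNAJA1 and HSPA6. These 4 did not share a direction, since HSPA8 and DNAJA1 were somewhat higher in Ramos640, DNAJB6 was lower, and HSPA6 had 5 reads in Ramos and none in Ramos640. The search allowed no mismatch in the fixed letters, so looser forms of either element were not looked for. The heat shock element was matched in only 2 of the 8 heat-inducible cytosolic genes described below. A match is a description of the letters and not of binding.

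Of the 131 rows, 97 had at least 10 reads in both libraries together. Among them, 17 were higher and 10 lower in Ramos640 by more than 1.5-fold, the fold limit of the study (17.5% and 10.3% of the 97), where 14.6% of all 18778 rows with this many reads were higher and 17.3% lower. The 58 genes among these rows gave 6 higher (10.3%) and 7 lower (12.1%), and the other 11 higher rows were pseudogenes. With at least 100 reads, 9 of 81 rows were higher and 9 lower, against 9.94% and 12.6% of 13677 rows. Among protein-coding rows alone 9.56% were higher and 17.0% lower, so the share of higher genes was slightly above that of protein-coding rows and below that of all rows, and the share of lower genes was below both. Of the 35 pseudogenes 11 were higher (31.4%, against 14.6% of all rows). With at least 100 reads it was 4 of 24 (16.7%, against 9.94%). All rows include protein-coding rows, of which 9.56% were higher, or 7.1% with at least 100 reads. The share among the remaining rows was therefore above that of all rows, and the pseudogenes were not compared with them. The intervals of DNAJA1P6, HSPD1P10, HSPD1P11 and HSPD1P16, with 10 to 21 reads each, included 0. With the trend over GC content removed, 23 of 96 chaperone rows were higher and 6 lower, against 12.6% and 14.9% of all rows. The genes among the 23 were DNAJC12, HSP90B1, HSPA5, DNAJB11, DNAJA1, HSPA4L, DNAJC1 and DNAJA4. The rest were pseudogenes and the antisense row DNAJC9-AS1. For the 58 genes the log2 fold changes had a median of -0.018, beside -0.015 for all rows. On the log2 scale the limit is 0.585. HSPA4L (0.63) and DNAJB7 (-0.64) were the called genes nearest to it, and DNAJB12 (0.55) and HSPA12B (-0.52) the nearest not called.

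**Figure D1:**
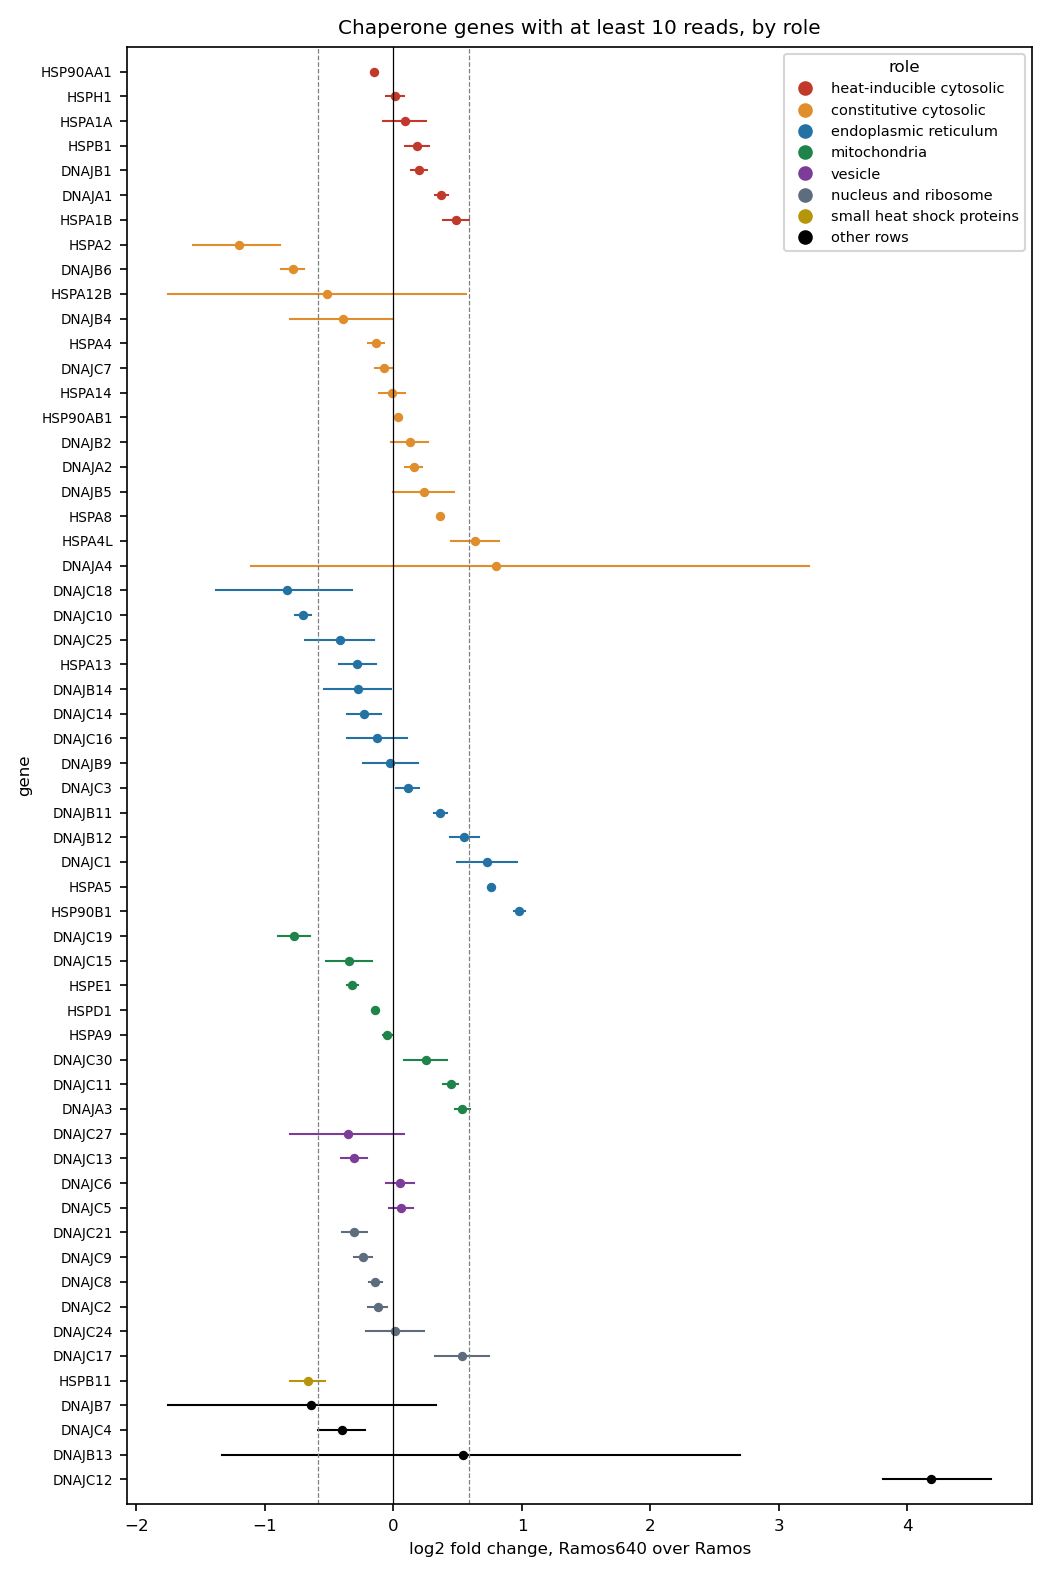
Log2 fold change of Ramos640 over Ramos (x axis) for the 58 chaperone genes with at least 10 reads, coloured by role. Points are the log2 fold changes, bars the 95% counting intervals and dashed lines the 1.5-fold limit. Most genes lie between the dashed lines, and DNAJC12 stands alone at 4.18.

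DNAJC12, a J domain protein that serves as co-chaperone of the aromatic amino acid hydroxylases, had by far the largest difference. It was counted with 52 reads in Ramos and 741 in Ramos640. Scaled to exon length and total reads (RPKM), its level was 0.639 in Ramos and 11.2 in Ramos640, where it lay between DNAJC3 (10.2 RPKM) and DNAJC2 (11.4 RPKM). This is an 18.2-fold difference, 4.18 on the log2 scale (interval 3.81 to 4.65). Among the 13677 rows with at least 100 reads, DNAJC12 was the 10th highest by fold change. No other chaperone gene with at least 10 reads differed by more than 2.31-fold in either direction.

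DNAJC12 lies on the minus strand of chromosome 10 of GRCh37 (chr10:69556427-69597946), and no other expressed protein-coding gene overlaps it. Its neighbours did not share the difference. SIRT1, 46.5 kb beyond its 5′ end, had 935 and 638 reads (log2 fold change -0.17) and HERC4 had 1743 and 907 (-0.56). On the other side the nearest protein-coding gene with at least 10 reads was REEP3, 4172 kb away, with 135 and 63 reads (-0.71). Of the 10 nearest such genes, 5 on each side, the values ran from -1.30 for RTKN2 to 0.10 for RUFY2.

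**Figure D2:**
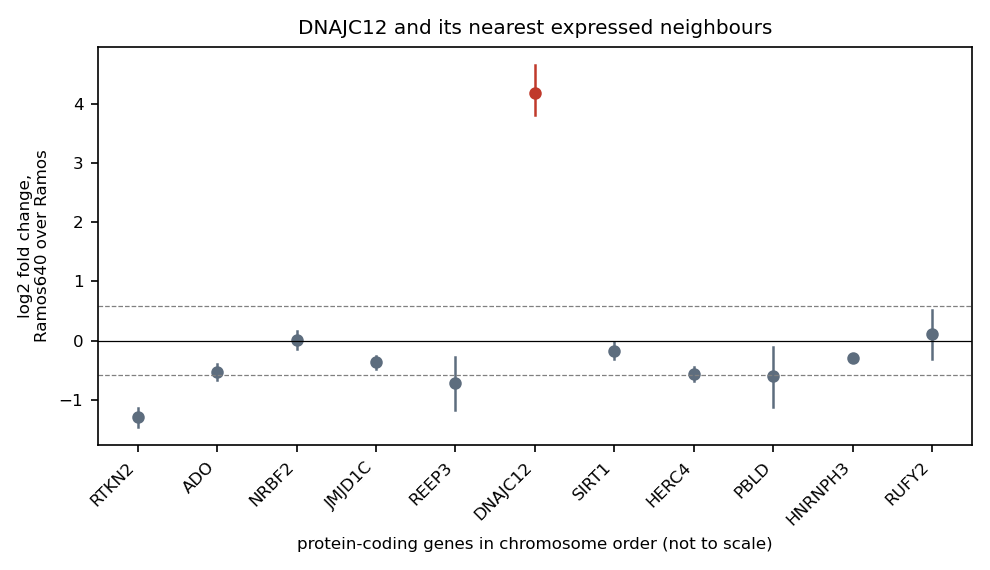
Log2 fold change of Ramos640 over Ramos (y axis) for DNAJC12 and the 5 nearest protein-coding genes with at least 10 reads on either side, in chromosome order (x axis, not to scale). Points are the values, bars the 95% counting intervals and dashed lines the 1.5-fold limit. DNAJC12 is at 4.18 and every neighbour is at or below 0.10.

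In the ER, the HSP70 and the HSP90 of this compartment were both higher in Ramos640. HSPA5, which encodes BiP, the ER HSP70 that binds new immunoglobulin chains, lies on the minus strand of chromosome 9 of GRCh37 (chr9:127997132-128003661). Ramos gave 21686 reads and Ramos640 28147 (log2 fold change 0.76, interval 0.73 to 0.78). Its level was 87.3 RPKM in Ramos, the 378th of 18923 protein-coding rows, and 139.6 RPKM in Ramos640, the 220th. HSP90B1, which encodes GRP94, the ER member of the HSP90 family, lies on chromosome 12 (chr12:104323885-104347709) and had 7195 and 10902 reads. Its log2 fold change of 0.98, from 0.94 to 1.02, was a 1.97-fold difference and the largest among the ER chaperones. The intervals of both genes lay wholly above 1.5-fold.

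The ER J domain proteins did not move as a set. DNAJC1 (ERdj1), a membrane protein that contacts ribosomes, was higher, with 266 and 338 reads and a log2 fold change of 0.72 (interval 0.49 to 0.96). DNAJB12, of the ER membrane, and DNAJB11 (ERdj3), a soluble partner of BiP, were higher within the limit, at 0.55 and 0.37. DNAJC3 (p58IPK) was at 0.11. DNAJB9 (ERdj4), whose gene is a classical target of the unfolded protein response, had 413 and 312 reads (-0.023, interval -0.24 to 0.19). DNAJC10 (ERdj5), which reduces disulfide bonds in proteins bound for degradation, was lower in Ramos640, with 6665 and 3143 reads and a log2 fold change of -0.70 (interval -0.77 to -0.64), but it was inside the limit at -0.38 with the trend over GC content removed. DNAJC18, also of the ER membrane, had 105 and 45 reads (-0.83, interval -1.38 to -0.32). In all, 3 of the 14 ER members were higher and 2 lower by more than 1.5-fold (21.4% and 14.3%, against 14.6% and 17.3% of all rows). Their median was -0.076, with 8 of the 14 below 0. With the GC trend removed it was 0.19, DNAJB11 passed the limit at 0.67 and DNAJC10 no longer did. Normalized reads of the 14 summed to 43600 in Ramos and 62640 in Ramos640. That rise lay in HSPA5 (19000 and 32120) and HSP90B1 (6305 and 12440), and not in the set as a whole.

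Partners of these chaperones outside the name pattern were listed as well. SIL1, which exchanges the nucleotide of BiP, had 456 and 730 reads and a log2 fold change of 1.06 (interval 0.89 to 1.23). SDF2L1, which works with DNAJB11, had 956 and 1225 reads (0.74), and HYOU1, the large ER HSP70 also called GRP170, had 9650 and 11634 (0.65). SEC63, a J domain protein of the translocon, was at -0.13. Of the 4 listed ER partners 3 were thus higher by more than 1.5-fold, against 14.6% of all rows and 9.56% of protein-coding rows. The list was made with earlier results of these data known, so this count is a description only. Scaled to total counts HYOU1 fell back inside the limit, and so did HYOU1 and SDF2L1 when the trend over GC content was removed, while SIL1, HSPA5 and HSP90B1 stayed past it under both.

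**Figure D3:**
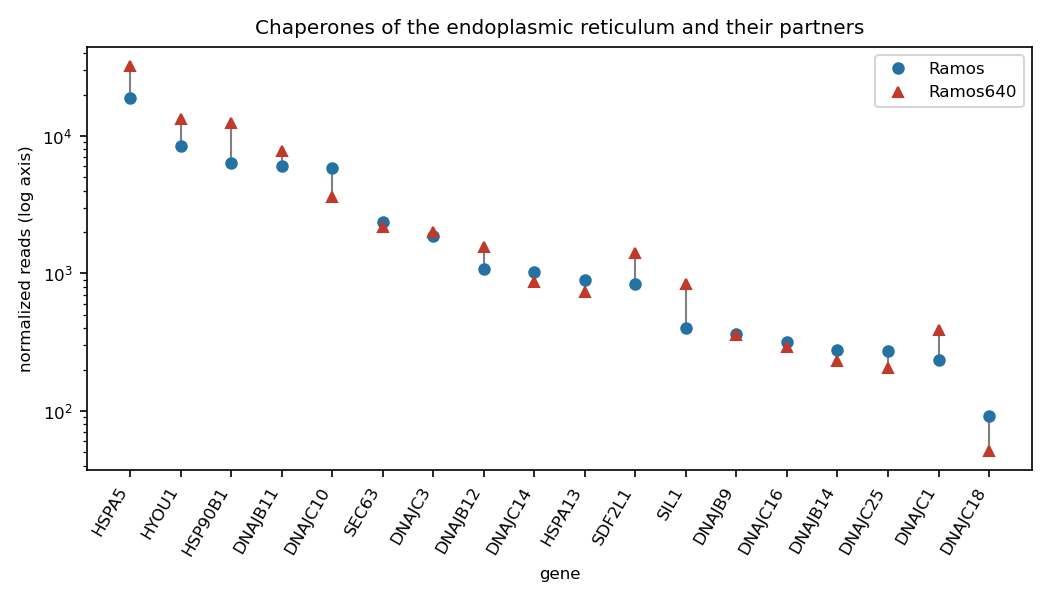
Normalized reads (y axis, log scale) of the 14 ER chaperones and 4 ER partners, in order of reads in Ramos, for Ramos (circles) and Ramos640 (triangles), 1 library each. The triangles of HSPA5, HYOU1, HSP90B1, SDF2L1, SIL1 and DNAJC1 lie above the circles, and those of DNAJC10 and DNAJC18 below.

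In the cytosol, the heat-inducible genes stayed within the limit. None of the 7 with at least 10 reads was past 1.5-fold in either direction, where 14.6% of all rows were higher and 17.3% lower. Their median log2 fold change was 0.18. With the GC trend removed it was 0.041, and DNAJA1 passed the limit at 0.60. HSP90AA1, the inducible cytosolic HSP90, had 37560 and 25897 reads (-0.16), and HSPH1, an exchange factor for HSP70, had 3905 and 3020 (0.010, interval -0.059 to 0.079). DNAJB1 (HSP40), the J domain protein induced most by heat, had 4276 and 3766 reads (0.20), and DNAJA1 had 6551 and 6510 (0.37). HSPB1 (HSP27), a small chaperone that holds unfolded proteins, had 2074 and 1807 reads (0.18). The strictly inducible HSPA6 had 5 reads in Ramos and none in Ramos640, close to the limit that a count of 0 allows.

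HSPA1A and HSPA1B, the inducible HSP70 genes, encode nearly the same transcript, and how reads that fit both were assigned is not given in the sources used here. HSPA1A had 658 and 537 reads (log2 fold change 0.088) and HSPA1B had 1479 and 1591 (0.49). Summed over both rows the log2 fold change was 0.37, with an interval from 0.29 to 0.46. Heat shock factor HSF1 was at 0.51 (2755 and 3021 reads) and HSF2 at -0.25 (499 and 322 reads), neither past the limit.

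Constitutive cytosolic chaperones were the most abundant members. HSP90AB1, the constitutive HSP90, had 151756 and 119601 reads, or 31.3% and 29.7% of all chaperone reads. At 1339 and 1300 RPKM it was the 4th and the 5th of 18923 protein-coding rows, and its log2 fold change was 0.038. HSPA8 (HSC70), which serves folding and uncoats clathrin vesicles, had 68075 and 67140 reads (0.36, interval 0.35 to 0.38) at 369 and 448 RPKM. HSP90AA1 came next with 194 and 165 RPKM, then HSPE1 in Ramos and HSPA5 in Ramos640. The order of the first 3 was the same in both libraries.

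Some less abundant cytosolic genes were past the limit. HSPA2, an HSP70 best known for its part in spermatogenesis, lies on chromosome 14 (chr14:65002623-65012891) and was counted 296 times in Ramos and 98 times in Ramos640. At -1.21 (interval -1.56 to -0.88) it had the lowest log2 fold change of the 58 genes. DNAJB6, which suppresses the aggregation of polyglutamine proteins, had 3168 and 1412 reads (-0.78, interval -0.88 to -0.69). HSPA4L, a relative of HSPH1, had 431 and 514 reads (0.63, interval 0.45 to 0.82) and came inside the limit with total counts. DNAJA4 had only 4 and 6 reads, and DNAJB7 27 and 13, so their intervals spanned 0. In the DNAJA family all 4 genes had values above 0, from 0.16 for DNAJA2 to 0.80 for DNAJA4, with the interval of DNAJA4 spanning 0. Among protein-coding rows 5484 of 12097 were above 0. Of the 24 DNAJC genes 15 were below 0, as were 6612 of 12097 protein-coding rows.

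**Figure D4:**
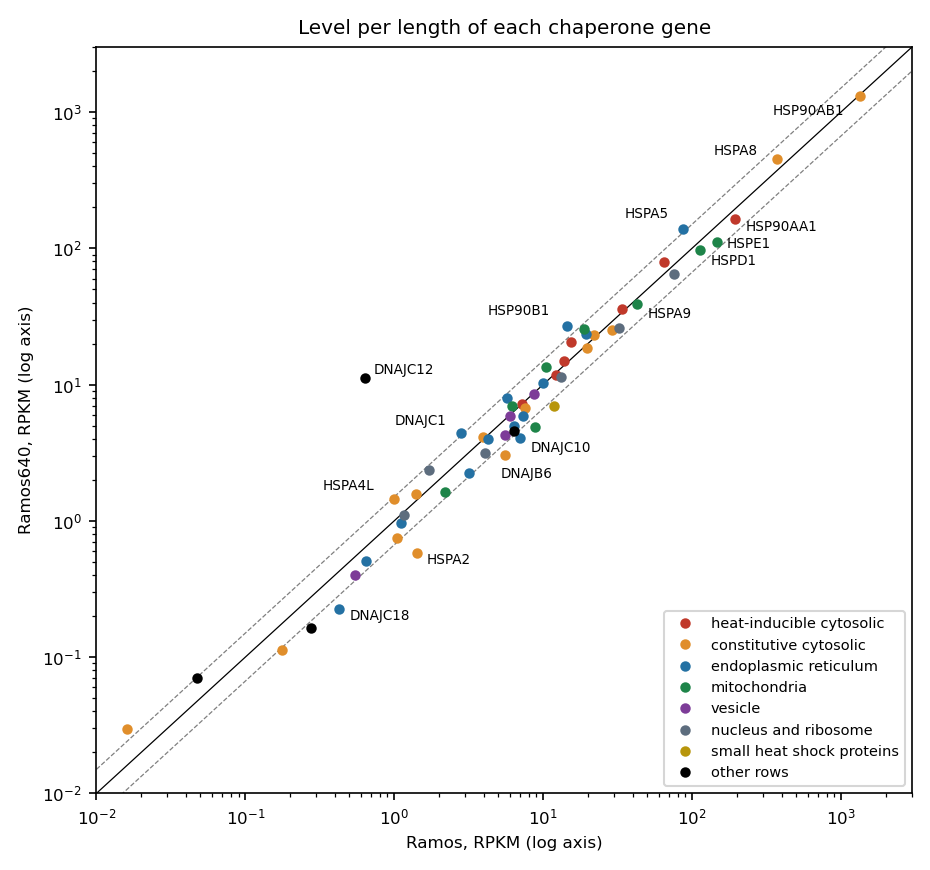
Level per length of each chaperone gene with at least 10 reads, in RPKM on log axes, in Ramos (x axis) and Ramos640 (y axis), 1 library each. The solid line marks equal levels and the dashed lines 1.5-fold on the scale of total counts. DNAJC12, at 0.639 and 11.2 RPKM, lies furthest from the lines.

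In mitochondria, mortalin (HSPA9) differed little between the lines. HSPA9, on the minus strand of chromosome 5 (chr5:137889445-137911364), gave 15936 reads for Ramos and 11825 for Ramos640 (log2 fold change -0.049, interval -0.084 to -0.015). Its level was 42.8 and 39.2 RPKM. The interval covers counting error only, and with the trend over GC content removed the value was 0.14. With TMM (-0.059) and total counts (-0.13), other ways of scaling the libraries, it stayed below 0. Its sign therefore depended on removal of the GC trend, while every alternative tried left it inside the 1.5-fold limit. The mitochondrial members above 0 were 3 J domain proteins: DNAJA3 (Tid1), the partner of HSPA9 in the matrix, at 0.54 (5036 and 5609 reads), DNAJC11, of the inner membrane organising complex, at 0.44 (4819 and 5035), and DNAJC30 at 0.25.

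The chaperonin HSPD1 (HSP60) and its lid HSPE1 (HSP10), which are transcribed in opposite directions from a shared region of chromosome 2, had values slightly below 0 that did not hold with the GC trend removed (0.16 for HSPD1 and -0.00027 for HSPE1). HSPD1 had 32778 and 22813 reads (-0.14, interval -0.17 to -0.12), and HSPE1 had 10131 and 6236 (-0.32, interval -0.36 to -0.27). HSPE1-MOB4, a read-through row that shares exons with HSPE1, was at -0.28. DNAJC19, a J domain protein of the inner membrane, was the mitochondrial member past the limit, with 1645 and 739 reads (-0.77, interval -0.90 to -0.65). With the GC trend removed DNAJC19 came inside the limit, at -0.45. DNAJC15, a related inner membrane protein, was at -0.35.

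At least 10 reads were found for 4 of the 7 vesicle genes and for all 6 genes with nuclear or ribosomal roles. None of these was past 1.5-fold, where 14.6% of all rows were higher and 17.3% lower. In the vesicle group DNAJC5, the cysteine string protein of exocytosis, was at 0.058, and DNAJC6 (auxilin), which recruits HSPA8 to clathrin coats, was at 0.053 with 1596 and 1271 reads. DNAJC13, of endosomes, was at -0.31. In the nucleus, DNAJC9, a histone chaperone, had 3969 and 2585 reads (-0.24) and DNAJC8, associated with splicing, had 8360 and 5824 (-0.14). DNAJC2, which assists new chains at the ribosome, was at -0.12, and DNAJC17 was at 0.53. Among small heat shock proteins, 6 of 8 genes had fewer than 10 reads. HSPB11, now named IFT25 for its role in transport within cilia, was lower with 1344 and 650 reads (-0.67, interval -0.80 to -0.53). With the GC trend removed HSPB11 came inside the limit, at -0.52.

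Further genes of the chaperone system were taken from a list of 47, made with earlier results of these data known. At least 10 reads were found for 44 of them. Of these, 5 were higher (11.4%, against 14.6% of all rows) and 1 lower (2.27%, against 17.3%) by more than 1.5-fold. Among protein-coding rows 9.56% were higher and 17.0% lower. The median log2 fold change of the 44 was 0.10. Besides SIL1, SDF2L1 and HYOU1, the higher ones included CCT3, a subunit of the cytosolic chaperonin TRiC, at 0.63 (30283 and 35991 reads), which came inside the limit with total counts (0.55) and with the GC trend removed (0.53). The other TRiC subunits ran from -0.26 for CCT8 to 0.55 for CCT7. AHSA2, a relative of the HSP90 activator AHSA1, was lower at -0.80 (1194 and 528 reads), while AHSA1 itself was at -0.018. None of the 9 HSP70 co-chaperones was past the limit, and BAG3, a partner of HSP70 that is induced by stress, had 301 and 204 reads (-0.18).

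Pseudogene rows took 7.24% of the chaperone reads in Ramos and 6.97% in Ramos640, so reads of the parent genes could have been split. HSPD1 had 22 pseudogene rows, which held 22.8% of the reads of gene and copies in Ramos and 22.4% in Ramos640. Adding the copies moved the log2 fold change of HSPD1 from -0.14 to -0.15, of HSP90B1 from 0.98 to 0.96 and left HSPA9 at -0.049. Over the 11 genes with copies the largest move was that of DNAJC8, from -0.14 to -0.12. The copies themselves did not all follow their gene. HSP90AB2P had 2711 and 3439 reads (0.72, interval 0.65 to 0.80), while HSP90AB3P (12206 and 9292 reads, -0.012) stayed near HSP90AB1.

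**Figure D5:**
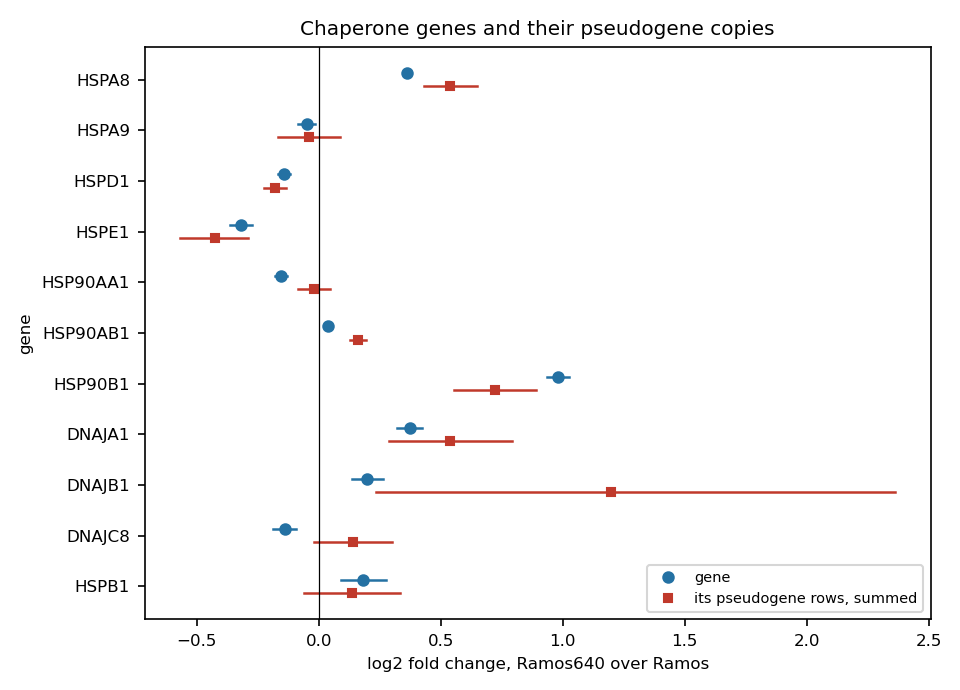
Log2 fold change of Ramos640 over Ramos (x axis) for 11 chaperone genes (circles) and for the summed reads of their pseudogene rows (squares), with 95% counting intervals as bars. HSP90B1 and its copies, at 0.98 and 0.72, and HSPE1 and its copies, at -0.32 and -0.43, lie on the same side of 0, while DNAJC8 and its copy do not.

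Neither of the rows furthest below 0 was a chaperone gene. DNAJC25-GNG10, a read-through row of chromosome 9, had 197 and 44 reads (-1.76, interval -2.29 to -1.30). Its values followed those of GNG10 (221 and 54 reads, -1.64) rather than those of DNAJC25 (313 and 180 reads, -0.42). DNAJC3-AS1, which lies next to DNAJC3 on the other strand, had 446 and 145 reads (-1.24), and DNAJC3 was at 0.11. Whether the counting used the strand is not given in the sources used here.

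Fold changes had a trend over GC content, and chaperone transcripts were poorer in GC than most. The median GC content was 41.7% for the 6 higher genes, 43.1% for the 7 lower genes and 47.5% for 10225 protein-coding rows with at least 100 reads. With the running median over GC content subtracted, DNAJC12 (4.46), HSP90B1 (1.23) and HSPA5 (0.88) were further above 0, HSPA2 (-1.09), DNAJB6 (-0.92) and DNAJC18 (-0.80) stayed below the limit, and DNAJC10 (-0.38), DNAJC19 (-0.45), HSPB11 (-0.52) and DNAJB7 (-0.32) came inside it. DNAJB11 (0.67) and DNAJA1 (0.60) passed it. On the lower side HSPA12B (-0.70), with 21 and 11 reads and an interval that included 0, passed it as well. The part of GC content in these differences was not tested.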

How the data were processed

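The authors removed adaptors from Ion Proton reads, used MapSplice (v2.1.6) for alignment to GRCh37, and deposited raw counts per gene, whole numbers without normalization. The counting program, its annotation, and its use of strand and of reads that fit several genes are not given in the sources used here. No column was without a sample. Counts were scaled by median-of-ratios size factors, since the study applied DEseq. Rows needed at least 10 reads in the 2 libraries together. Intervals are exact (Clopper-Pearson, scipy 1.17.1) and were checked on simulated data. With 1 library per line no test was run. RPKM used exon lengths of GENCODE v44lift37 (GRCh37), where 122 chaperone rows had their current symbol, 3 an older one and 6 no entry. Promoters were the first RefSeq entry of each gene. Alternatives were TMM (edgeR 4.0.16), total counts, pseudocounts of 0.1 and 10, minimums of 1 and 100 reads, removal of a running median over GC content (501 genes), and leaving out pseudogenes or genes with copies. Summing genes with their copies was chosen after seeing the data. Named genes are those past 1.5-fold, HSPA9, DNAJC12, HSF1, HSF2 and the 3 most abundant per length of each role group, and further ones were chosen after their values were seen. The members and lists were chosen with earlier results of these data known. The values of 1 listed gene are not reported here.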

Additional observations from a re-analysis of the deposited data

How the results depend on the processing

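No paired analysis was possible because each cell line has 1 library. The count of chaperone rows higher by more than 1.5-fold, 17 of 97, became 11 of 97 with a pseudocount of 10 (11.5% of all rows), 9 of 81 when 100 reads were required (9.94%), 6 of 58 without pseudogene, antisense and read-through rows and 5 of 44 without genes that have copies (both 14.6%). It was 23 of 96 with the GC trend removed (12.6%), 22 of 114 with at least 1 read (20.2%) and 14 of 97 with total counts (12.5%). Most of the 23 were pseudogenes. The count of lower rows, 10, became 19 of 114 with at least 1 read (22.9% of all rows) and 6 of 96 with the GC trend removed (14.9%). For the other chaperone genes, 5 higher became 2 with total counts and 3 with the GC trend removed, and 1 lower became 2 with the GC trend removed or at least 1 read. With the GC trend removed, the median log2 fold change of the ER group moved from -0.076 to 0.19, of the mitochondrial group from -0.096 to 0.13, of the heat-inducible group from 0.18 to 0.041 and of the nuclear and ribosomal group from -0.13 to -0.0050. With total counts the mitochondrial median was -0.18 and the nuclear and ribosomal median -0.21, and with at least 1 read the vesicle median was -0.33. Fewer or more rows tested account for the changes of the minimums by construction, and for the rest the cause was not tested. Of 51 named genes, all kept their sign with TMM and with both pseudocounts, and 48 with total counts, where DNAJC5, DNAJC6 and HSP90AB1 came below 0. With the GC trend removed 44 of 50 kept it, and DNAJC2, DNAJC5, HSPA4, HSPA9, HSPB1 and HSPD1 did not. No gene past 1.5-fold changed sign under any alternative run. Depth limits genes under 10 reads, 14 of the 72, for which no fold change is given.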
